A study of Homo sapiens with 4 samples.

Results

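The promoter H3K27ac peaks common to the cancer lines OVCAR-3, SKOV-3, COLO-205 and DU-145 are 4444 of the 76093 peaks in the OVCAR-3 list (5.84%). An OVCAR-3 peak was taken as a member when it shared at least 1 base with a peak in each of the other 3 lists and its summit lay within 1000 bases of the start of a protein-coding GENCODE transcript. The members were thus chosen by the measured presence of a peak in all 4 lists, and their heights and widths are given below as descriptions. Of the 17040 OVCAR-3 promoter peaks, 26.1% were members (exact 95% interval 25.4% to 26.7%), and the other 12596 were missing from at least 1 list. Without the SKOV-3 list, which is the shortest, 7082 promoter peaks were common to the remaining 3 lists, so 2638 peaks were left out by SKOV-3 alone.

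The series profiled H3K27ac by ChIP-seq in 4 established human cancer cell lines, for which the labels name no treatment. COLO-205 is a colon cancer line grown in RPMI with fetal bovine serum, and DU-145 is a prostate cancer line grown in Eagle's minimal essential medium with serum. OVCAR-3 and SKOV-3 are ovarian cancer lines, grown with serum in RPMI 1640 and in McCoy's 5a minimal essential medium, respectively. Each line was profiled in 1 library, so lines, culture media and libraries cannot be told apart, no difference between lines has a replicate check, and the intervals below cover counting error only.

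Acetylation of lysine 27 on histone H3 is laid down by the acetyltransferases p300 and CBP and marks nucleosomes at active promoters and enhancers. At an active promoter the start site itself is usually depleted of nucleosomes, and the mark sits on the nucleosomes to either side. Promoters of genes that every cell uses are typically CpG islands, which lack DNA methylation and carry boxes for general factors such as SP1, NFY, NRF1 and the ETS family. Enhancers differ far more between cell types.

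The sequence just before the start is shown for 5 members, chosen to show the range of promoter types in the set, from G and C rich to A and T rich. They are not a typical sample. TATAAA, which ZNF335 and FOS hold, was at 3.87% of the members' starts in the longer window used below. Each line gives the 150 bases before the transcript start nearest to the summit, 5′ to 3′ on the strand of the gene, with GRCh37 coordinates, and none of these bases lies in an annotated exon. Capitals mark letters that match one of the 10 short motifs described below, on either strand.
SS18L1 (chr20:60718675-60718824, plus strand): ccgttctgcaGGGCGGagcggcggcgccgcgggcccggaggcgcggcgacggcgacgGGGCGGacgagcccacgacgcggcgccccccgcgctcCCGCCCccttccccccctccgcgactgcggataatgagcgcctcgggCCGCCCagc
ZNF335 (chr20:44600843-44600992, minus strand): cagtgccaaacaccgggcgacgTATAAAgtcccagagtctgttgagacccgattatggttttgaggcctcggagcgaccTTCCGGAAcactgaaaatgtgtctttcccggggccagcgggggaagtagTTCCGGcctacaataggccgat
FOS (chr14:75745379-75745528, plus strand): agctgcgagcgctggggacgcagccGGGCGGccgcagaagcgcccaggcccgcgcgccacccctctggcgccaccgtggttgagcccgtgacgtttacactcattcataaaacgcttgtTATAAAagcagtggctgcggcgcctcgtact
H2AC15 (chr6:27806154-27806303, minus strand): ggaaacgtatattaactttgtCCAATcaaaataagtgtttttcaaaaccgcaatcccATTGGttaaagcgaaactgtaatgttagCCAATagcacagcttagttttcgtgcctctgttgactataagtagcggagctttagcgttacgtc
YY1 (chr14:100704485-100704634, plus strand): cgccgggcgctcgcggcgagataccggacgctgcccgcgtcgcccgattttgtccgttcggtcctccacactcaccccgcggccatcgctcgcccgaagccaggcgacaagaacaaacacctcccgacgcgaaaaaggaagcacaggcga

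SS18L1, a subunit of the BAF chromatin remodelling complex that shares its promoter region with the proteasome gene PSMA7, held 4 SP1 boxes, which start 140, 93, 56 and 9 bases before the transcript start. ZNF335, a zinc finger regulator, held 3 ETS matches, of which 2 overlap, and a TATAAA that lies 128 bases before the start, far from the usual place of a TATA box. FOS, the immediate early AP-1 subunit, held TATAAA 31 bases before the start. H2AC15, a replication-dependent histone gene, held 3 CCAAT boxes in a 300-base window with 42.7% G and C, and only 5 of its 150 bases lay inside the peak, which sits over the gene body. None of the 10 motifs matched in the 150 bases before YY1, a zinc finger factor of many promoters, although its CpG observed/expected ratio over the 300-base window used below was 1.27. For the 4 genes other than H2AC15, all printed bases lay inside the OVCAR-3 peak.

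Common promoter peaks sat at CpG-rich starts. In the 300 bases from 250 before to 50 after the start, the median G and C share was 69.7% at the 4371 starts nearest to a member, 65.3% at the 10784 starts nearest to another OVCAR-3 promoter peak and 49.0% at the 26587 starts with no peak summit within 1 kb in any list. The CpG observed/expected ratio compares the CpG dinucleotides found with the number that the C and G content would give. Its median was 0.898 at the members' starts, 0.809 at the starts of other OVCAR-3 promoter peaks, 0.280 at starts with no peak and 0.695 over all 78515 starts. Starts with at least 50% G and C and a ratio of at least 0.6, called CpG-island-like here, made up 93.4% of the members' starts (92.6% to 94.1%), against 73.7% (72.9% to 74.5%), 15.4% (15.0% to 15.8%) and 55.05% (54.7% to 55.4%) in the same order. Genes with several transcripts enter the larger classes several times, so these starts are not independent of each other.

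**Figure D1:**
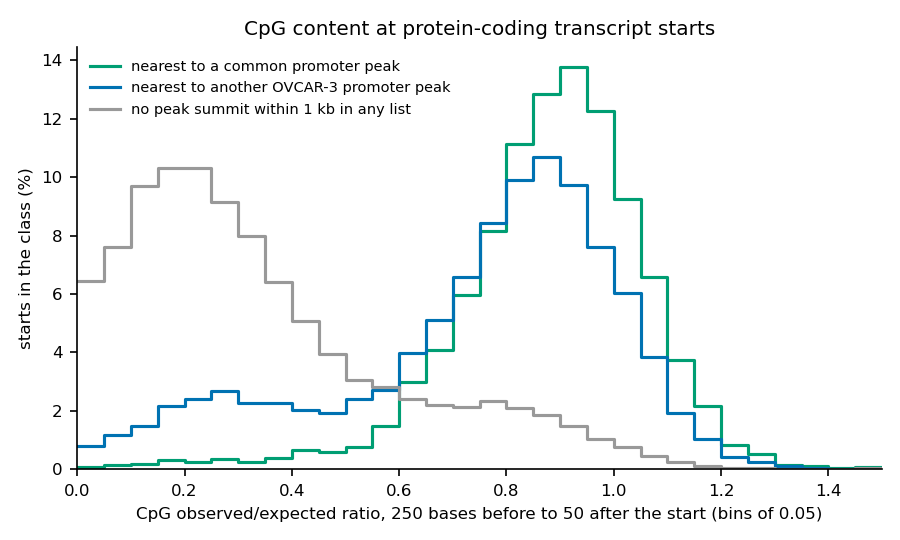
Distribution of the CpG observed/expected ratio (horizontal axis, no unit) in the 300 bases around protein-coding starts, as the percent of starts in each class (vertical axis). The starts nearest to a common promoter peak form a single hump near their median of 0.898, starts of other OVCAR-3 promoter peaks have a low shoulder, and starts with no peak lie mostly near their median of 0.280.

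The short motifs were searched as exact letters on both strands of the same 300 bases. The SP1 box GGGCGG was found at 79.8% of the members' starts and 51.6% of all starts. The ETS core CCGGAA was found at 31.1% and 20.1%, and AAGATGGC, the YY1 motif, at 6.93% and 3.55%. The NRF1 motif GCGCATGC (5.33% and 3.46%), the E-box CACGTG (10.2% and 7.75%) and the cyclic AMP response element TGACGTCA (3.02% and 2.09%) were also more frequent at the members. Less frequent at the members were TATAAA (3.87% against 9.53%), the NFY box CCAAT (30.5% against 33.4%) and the AP-1 motif TGANTCA (3.43% against 5.96%). The ZNF143 motif ACTACAAT was at 0.572% (0.370% to 0.843%) and 0.706%, which is within counting error. Starts nearest to other OVCAR-3 promoter peaks lay closer to the members for most motifs. There the SP1 box was at 66.5%, the ETS core at 25.4%, YY1 at 4.62%, the E-box at 8.94%, TATAAA at 5.09%, NFY at 33.1% and AP-1 at 4.79%. NRF1 (4.78%) and the cyclic AMP response element (2.56%) lay inside the members' intervals (4.68% to 6.04% and 2.53% to 3.57%).

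The members' starts also differ from all starts in base composition, whose part in these shares was not tested apart from the following. Among CpG-island-like starts only, a comparison chosen after the data were seen, members and all starts had nearly equal shares of TATAAA (3.50%, 2.96% to 4.11%, and 3.42%), NRF1 (5.63%, 4.95% to 6.38%, and 5.71%) and the cyclic AMP response element (3.16%, 2.64% to 3.74%, and 3.18%), with the sign of each difference reversed and the value for all starts inside the members' interval. The value for all starts was also inside the members' interval, without a reversed sign, for the E-box (10.4%, 9.49% to 11.4%, and 10.1%), AP-1 (2.74%, 2.26% to 3.29%, and 2.88%), ZNF143 (0.612%, 0.397% to 0.903%, and 0.849%) and the ETS core (31.9%, 30.4% to 33.3%, and 30.5%). NFY stayed less frequent at the members (29.9%, 28.5% to 31.3%, and 32.2%). At CpG-island-like starts with no peak, the ETS core was at 17.9% (16.7% to 19.1%). The YY1 motif was at 7.15% (6.38% to 7.99%) and 5.23%, against 1.44% (1.099% to 1.86%) of starts with no peak. The SP1 box was at 82.2% and 78.6%, against 72.7% of starts with no peak. A match says only that these letters are present, and no binding was measured here.

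Promoter peaks were common to the 4 lines far more often than distal peaks. Among the 59053 OVCAR-3 peaks whose summits lay over 1 kb from a protein-coding start, 734 were in all 4 lists (1.24%, 1.16% to 1.34%), so promoter peaks made up 85.8% of the 5178 common peaks but 22.4% of all OVCAR-3 peaks. The other OVCAR-3 promoter peaks split into 3328 found in no other list, 5411 found in 1 and 3857 found in 2. Of these 3857, SKOV-3 lacked 2638, COLO-205 lacked 1050 and DU-145 lacked 169. The same rule applied to the promoter peaks of the other lists gave 4712 for COLO-205 (36.3% of its promoter peaks), 4446 for DU-145 (26.0%) and 4850 for SKOV-3 (67.9%). The number thus stayed between 4444 and 4850 whichever list was counted, while the share was highest for SKOV-3, which has the fewest promoter peaks.

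In genes, the members lay within 1 kb of starts of 4623 of 19807 protein-coding genes (23.3%). A single gene was reached by 3738 members and 2 or more by 706. Starts of genes on opposite strands pointing away from each other were reached by 580 members (13.1%, 12.1% to 14.1%), against 10.2% (9.70% to 10.8%) of the other OVCAR-3 promoter peaks. Conversely, 517 genes had 2 or more members. The most were 5 at INF2, a formin of the actin cytoskeleton, and 4 each at DGKH, a diacylglycerol kinase, and JADE2, a subunit of a histone acetyltransferase complex. A further 174 genes had a promoter peak in all 4 lists and no member, since no single OVCAR-3 promoter peak there overlapped peaks of all 3 other lists.

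By tag pileup, the members' peaks were higher than other peaks in each line. The tag pileup is the number of extended tags over the summit, solved here from the fold enrichment and p value of each peak. At the members its lowest, median and highest values were 17, 50 and 259 tags for COLO-205, 22, 79 and 252 for DU-145, 19, 113 and 390 for OVCAR-3 and 13, 40 and 151 for SKOV-3. The median over all other peaks of the same lists was 23, 26, 26 and 25 tags. The pileups are not scaled between lines, because the libraries differ in depth. In units of 1000000 tags, the estimated depth was 29.8 for COLO-205, 36.0 for DU-145, 34.2 for OVCAR-3 and 22.4 for SKOV-3. The members' median pileup per 1000000 tags was 1.68, 2.19, 3.30 and 1.79 in the same order, so OVCAR-3, whose peaks defined the set, stood highest.

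The fold enrichment over the local background, as deposited, did not set the members apart in every line. Its median at the members was 4.71 in COLO-205 and 5.30 in SKOV-3, where other peaks had 4.73 and 5.36. In DU-145 and OVCAR-3 it was 5.21 and 9.55, against 4.47 and 5.26 at other peaks. The local background that the peak caller had used was higher at the members than at other peaks in every line, with medians of 10.03 against 4.01 tags for COLO-205, 14.2 against 4.85 for DU-145, 10.9 against 3.95 for OVCAR-3 and 6.74 against 3.72 for SKOV-3. In rank by −log10 q within its own list, the median member stood at percentile 88.6 for COLO-205, 93.1 for DU-145, 94.0 for OVCAR-3 and 70.5 for SKOV-3. Of the 1000 peaks with the highest −log10 q, members were overlapped by 239 for COLO-205 (23.9%), 546 for DU-145 (54.6%), 629 for OVCAR-3 (62.9%) and 667 for SKOV-3 (66.7%). Over all peaks these shares were 6.04%, 6.39%, 5.84% and 36.9%. The SKOV-3 list holds 14001 peaks and the others 75468 to 85576, so percentiles and shares of the strongest peaks are not on the same footing for SKOV-3.

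Members were also wide. Their median width was 855 bases in OVCAR-3 (quartiles 596 and 1254), close to the 835.5 of the 734 common distal peaks, whereas it was 403 for other promoter peaks and 287 for other distal peaks. The matching peaks measured 496 bases for COLO-205, 989 for DU-145 and 394 for SKOV-3. The widest members were at PLEKHG2 (13591 bases), LAMA5 (12235 bases), which encodes a laminin chain, and PAF1 (12050 bases), which encodes a subunit of the PAF transcription elongation complex. Among the narrowest were those at WASF3 and ZFP69 (199 bases each) and at the DNA repair gene ERCC5 (203 bases).

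The overlap of 1 base that the rule asks for was often much larger. The median share of a member covered by the other line's peaks was 98.1% for DU-145, 67.7% for COLO-205 and 56.6% for SKOV-3, and the smallest overlaps were 54, 6 and 11 bases. When 50% of the member had to be covered in each line, 2228 peaks remained. The members closest to the limit of 1 kb had summits 997 bases from the start of UBE2G1, 995 from ARID1B and 990 from EPB41L4A, and the nearest common peaks outside it were 1007 bases from CHST11 and PTGR1 and 1026 from DNAAF2. The lowest −log10 q of a member was 3.04 for COLO-205 (LAMTOR5), 4.16 for DU-145 (LANCL1), 3.70 for OVCAR-3 (PPARG) and 3.61 for SKOV-3 (FBXW4), where the authors' threshold is 3. Below 10 lay 1152 members for SKOV-3, 915 for COLO-205, 238 for DU-145 and 106 for OVCAR-3. Requiring 10 in every list left 2637 members.

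Summits lay on the downstream side of the start in every line. The median position was 118 bases downstream of the nearest start for OVCAR-3, 127 for SKOV-3, 136 for DU-145 and 148.5 for COLO-205. The share of members with a downstream summit was 71.9% for OVCAR-3 (70.6% to 73.2%), 72.9% for SKOV-3 (71.6% to 74.2%), 71.0% for DU-145 (69.7% to 72.4%) and 73.6% for COLO-205 (72.3% to 74.9%). In OVCAR-3, 54.9% of the summits lay 50 to 250 bases downstream, 13.8% as far upstream and 4.79% within 25 bases of the start. These windows differ in length. In bins of 50 bases, 5.65% lay just downstream of the start and 3.74% just upstream. The bins from 250 to 50 bases upstream held 2.88% to 4.37% each, so summits were not depleted at the start relative to upstream. Of the other OVCAR-3 promoter peaks, 60.2% (59.4% to 61.1%) had a downstream summit, at a median position of 87 bases. The median distance of a member's summit from its OVCAR-3 summit was 39 bases for SKOV-3, 49 for COLO-205 and 52 for DU-145. Within 100 bases lay 75.7%, 70.3% and 68.3% of the members, and 3.33%, 5.47% and 7.63% were over 500 bases apart.

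**Figure D2:**
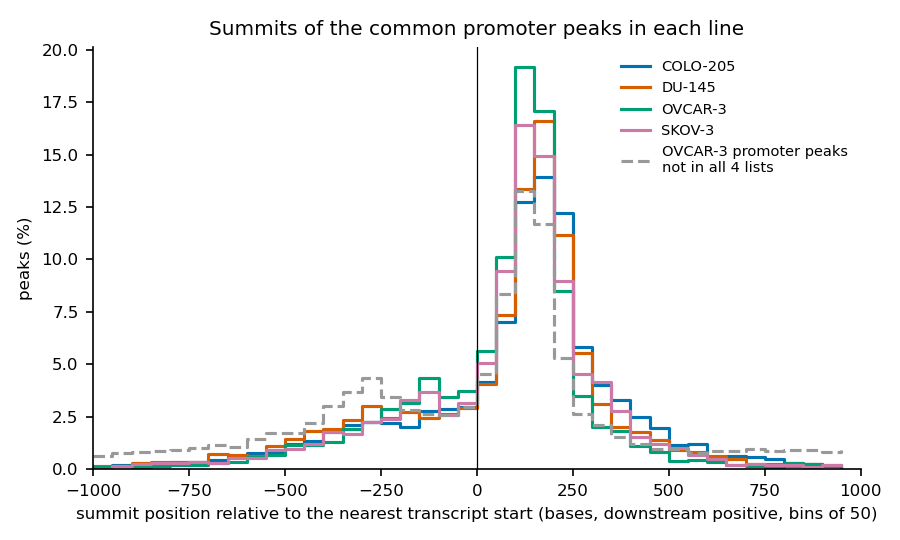
Position of peak summits relative to the nearest protein-coding transcript start (horizontal axis, bases, downstream positive), as the percent of peaks in bins of 50 bases (vertical axis). Solid lines give the 4444 members by the matching peak of each line, with a main hump 50 to 250 bases downstream. The shares at the start itself are lower than in the hump, without a dip below those further upstream. The dashed line gives the OVCAR-3 promoter peaks that are not in all 4 lists.

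A group of 10 members ranked near the top in every list, with the lowest of their 4 percentiles highest. CHTOP, a chromatin-associated factor of mRNA export, had 139 tags for COLO-205 (exact Poisson interval 117 to 164), 212 for DU-145 (184 to 243), 329 for OVCAR-3 (294 to 367) and 129 for SKOV-3 (108 to 153). Its percentile was at least 99.8 in all 4 lists. PTBP1, a splicing repressor, had 106, 124, 222 and 106 tags in the same order of lines, which is kept wherever 4 values follow a gene. DYRK1A, a kinase gene of chromosome 21, had 100, 128, 252 and 83 tags. All 3 were high in each library relative to its own list.

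The promoter region of SS18L1 and PSMA7 had 114, 117, 327 and 110 tags, and that of the cytoskeletal actin gene ACTG1 had 103, 121, 211 and 89. SLBP, which binds the stem-loop of histone mRNA, had 111, 118, 242 and 87 tags. The other 4 were TBL1XR1, a corepressor subunit, ANKLE2, a nuclear envelope protein, CTNNA1, the alpha-catenin of adherens junctions, and UBE2R2, a ubiquitin-conjugating enzyme. Across the 10, pileups ran from 82 to 139 tags for COLO-205, 94 to 212 for DU-145, 180 to 329 for OVCAR-3 and 67 to 129 for SKOV-3, and fold enrichment from 6.80 to 39.9.

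The 18 gene lists, which cover basic cell functions, large gene families, epithelial genes and the master regulators that the study predicted for these lines, were read against the 23.3% of all protein-coding genes with a member. The share was higher in 15 lists, and in 10 of them the whole interval lay above 23.3%. The intervals of the epithelial, mitochondrial ribosomal, aminoacyl-tRNA synthetase, complex I and master regulator lists include it. The highest shares were at the proteasome, which degrades ubiquitinated proteins (25 of 32 genes, 78.1%, 60.03% to 90.7%), and at the acetylation and chromatin machinery (23 of 31, 74.2%, 55.4% to 88.1%). Splicing factors (22 of 35, 62.9%) and chaperones (15 of 24, 62.5%) followed. Then came immediate early and stress genes (18 of 31, 58.1%), DNA replication and mitosis (16 of 29, 55.2%), cytosolic ribosomal proteins (43 of 81, 53.1%), commonly used reference genes (9 of 17, 52.9%), translation initiation factors (24 of 48) and RNA polymerase II with Mediator (20 of 40). With intervals this wide, the neighbours in this order do not differ beyond counting error. The intervals treat genes as independent, although some genes of a list share a peak, such as the 15 chaperone genes at 14 peaks. The order also depends on the setting, since with lists of equal length the proteasome stood at 31.2% and the chromatin list at 64.5%, against 11.6% of all genes. With a −log10 q of at least 10 they stood at 16 of 32 and 64.5%, against 14.4%. When 50% of the peak had to be covered, cytosolic ribosomal proteins stood at 13.6%, close to the 11.9% of all genes.

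**Figure D3:**
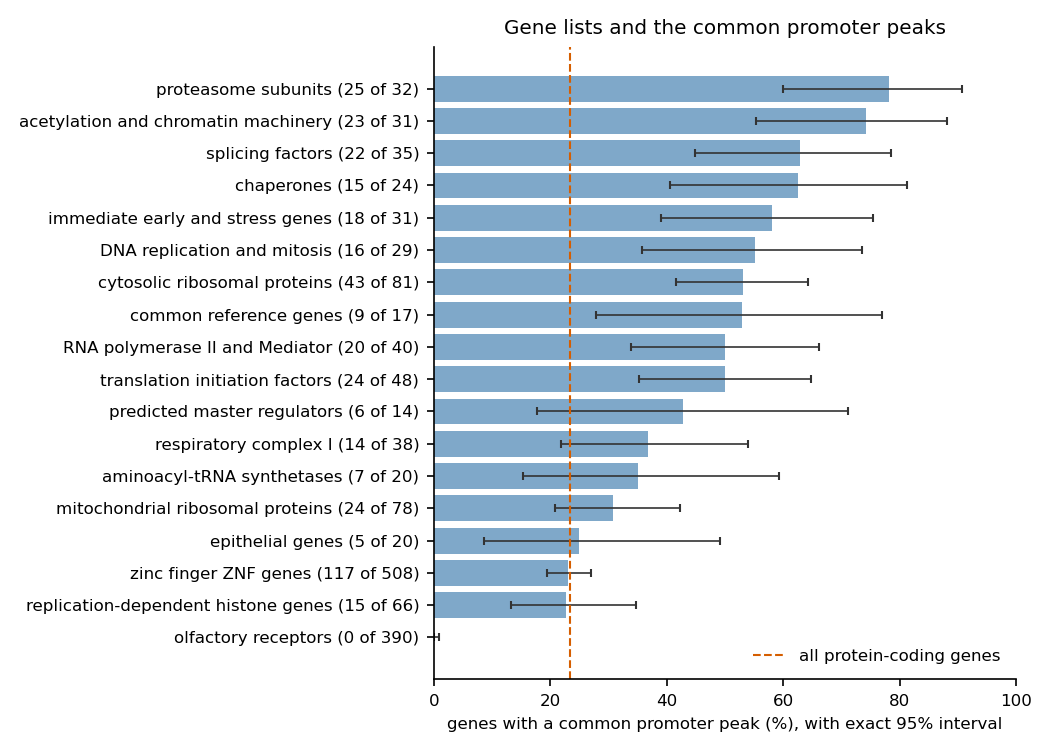
Percent of the genes of each list with a common promoter peak (horizontal axis, bars), with exact 95% intervals for counting error and the count of genes in brackets. The dashed line is the 23.3% of all protein-coding genes, and 15 of 18 bars end to its right, up to 78.1% for proteasome subunits.

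Lower shares were found for respiratory complex I (14 of 38, 36.8%), aminoacyl-tRNA synthetases (7 of 20, 35.0%) and mitochondrial ribosomal proteins (24 of 78, 30.8%), although these too serve every cell. Without the SKOV-3 list they stood at 25 of 38, 12 of 20 and 48 of 78, against 34.5% of all genes, and the reference genes above at 14 of 17. Of the genes without a member, 51 of 54 mitochondrial ribosomal and 23 of 24 complex I genes had no promoter peak in the SKOV-3 list, near the 90.2% among all 15184 genes without a member. Of the 20 aminoacyl-tRNA synthetase genes 7 had a member, and 10 of the rest had no promoter peak in SKOV-3, a smaller share. Zinc finger ZNF genes (117 of 508, 23.03%) and replication-dependent histone genes (15 of 66, 22.7%) stood near the share of all genes. The histone list moved above it in several settings, among them a −log10 q of at least 10 in every list (12 of 66, 18.2%, against 14.4% of all genes) and without SKOV-3 (31 of 66, 47.0%, against 34.5%). Olfactory receptor genes, which are mostly silent outside the nose, had no member among 390 genes (exact upper limit 0.941%), and 374 of them had no promoter peak in any list.

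Within the proteasome, PSMA7 (above), PSMC1, a base ATPase, and PSMD3, a lid subunit, ranked highest. PSMC1 had 51 tags for COLO-205, 83 for DU-145, 178 for OVCAR-3 and 53 for SKOV-3, and PSMD3 had 74, 99, 125 and 67. Of the 7 proteasome genes without a member, 6 lacked a promoter peak in the COLO-205 list and 3 in that of SKOV-3, where 67.7% and 90.2% of all genes without a member did. DU-145 and OVCAR-3 each had a promoter peak at all 32 genes.

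The chromatin list held the enzymes of the mark itself. EP300, which encodes p300, had 87, 96, 159 and 81 tags, with a summit 658 bases upstream of the nearest start. YY1 stood at percentiles 98.3, 99.8, 98.8 and 99.2 of the 4 lists, and SMARCB1, a BAF subunit, had 70, 100, 233 and 74 tags. CREBBP, BRD2, BRD3, KAT2A and CTCF also had members, and the 8 genes of the list without one were EED, EZH2, HDAC1, HDAC3, KAT2B, KDM6A, KDM6B and KMT2C, which were picked out after the values were seen. Members of this list stood at a median mean percentile of 94.6, against 82.6 over all members.

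In the splicing factor list, genes of serine and arginine rich proteins ranked highest. SRSF6 had 132, 135, 240 and 76 tags, SRSF4 had 114, 107, 160 and 79, and the region shared by SRSF2 and MFSD11 had 102, 123, 285 and 73. EIF4G1, the scaffold of the cap-binding complex, had 93, 93, 185 and 67 tags. EIF3A, a subunit of the eIF3 complex, had 77, 115, 177 and 69, and EIF5 had 72, 127, 209 and 66. VARS1, the valyl-tRNA synthetase, had 102, 112, 236 and 104 tags. After centring, as described below, the median log2 range between lines was 0.58 for splicing factors and 0.65 for initiation factors, against 0.76 over all members.

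Among cytosolic ribosomal protein genes, RPS29, whose region also holds LRR1, had 71 tags for COLO-205, 177 for DU-145, 232 for OVCAR-3 and 70 for SKOV-3, and RPS27 had 58, 160, 199 and 45. The 43 members of this list had a median mean percentile of 82.5, close to that of all members, and a median log2 range of 0.81, against 0.76 over all members, a difference that was not tested. Of the 38 genes without a member, 31 lacked a promoter peak in SKOV-3 and 16 in COLO-205, where 90.2% and 67.7% of all genes without a member did. MRPL12 and MRPS7, mitochondrial ribosomal protein genes on chromosome 17, had 111, 92, 254 and 66 tags and 110, 94, 243 and 62 tags.

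HSPA9, the mitochondrial chaperone, had 112 tags for COLO-205, 113 for DU-145, 235 for OVCAR-3 and 139 for SKOV-3, and HSPA8, the constitutive cytosolic chaperone, had 94, 96, 175 and 98. MED29, in the 12050-base peak at PAF1, and POLR2H, a subunit shared by the RNA polymerases, led the transcription list with 87, 126, 388 and 73 tags and 83, 125, 221 and 56 tags. CDK1, the mitotic kinase, had 58, 52, 156 and 42 tags and MKI67, the proliferation marker, 65, 69, 110 and 44. Members of the replication and mitosis list ranked lower, with a median mean percentile of 73.2. Among reference genes ACTB had 87, 116, 181 and 59 tags, while GAPDH, POLR2A and RPLP0 had no member and no promoter peak in the SKOV-3 list. Of the 17 reference genes 9 had a member, and 5 of the rest lacked a promoter peak in SKOV-3, against 90.2% of all genes without a member. IPO8, PGK1 and TBP had a SKOV-3 promoter peak and lacked one in COLO-205, DU-145 or both.

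Immediate early genes are induced within minutes by serum and stress. The list of immediate early and stress genes, which also holds other stress genes, had members at 18 of 31 genes. KLF6 had 96, 96, 160 and 80 tags, NFKBIA, the NF-kB inhibitor, had 69, 236, 293 and 62, and ZFP36L1, an mRNA decay factor, 69, 112, 217 and 55. EGR1 had 74, 126, 131 and 93 tags and FOS 63, 116, 230 and 61. JUN, JUNB, JUND, DUSP1, IER2, IER3 and MCL1 also had members, and TXNIP was the 1 gene of the list with no promoter peak in any line. Of the 14 master regulators that the study predicted for these lines, a list the study drew up for them and so no independent evidence, 6 had a member (BCLAF1, CLOCK, EGR1, FOS, YY1 and ZEB1).

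KRT8, KRT18, KRT19, ESRP2 and TJP1 had one (5 of 20, 8.66% to 49.1%), and the interval includes the 23.3% of all genes. Without the SKOV-3 list, 16 of the 20 epithelial genes (80.0%) had a promoter peak common to the other 3 lists, against 34.5% of all genes. KRT8 and KRT18, the keratin pair of simple epithelia, share 1 member with 73 tags for COLO-205, 84 for DU-145, 129 for OVCAR-3 and 37 for SKOV-3. Promoter peaks marked 18 of the 20 genes for COLO-205, 17 for DU-145, 20 for OVCAR-3 and 5 for SKOV-3. The 15 genes without a member, CDH1 and EPCAM among them, all lacked a promoter peak in SKOV-3, as did 90.2% of all genes without a member.

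None of the 8 colon, 8 prostate and 8 ovarian and Mullerian markers had a member, nor did the leukocyte, fibroblast and endothelial or neural markers, but with lists of 7 or 8 genes the exact intervals reach 36.9% or more and include the 23.3% of all genes. Over all 19807 genes, promoter peaks marked 9523 for COLO-205, 11506 for DU-145, 11672 for OVCAR-3 and 6097 for SKOV-3, against which the marker counts are to be read. COLO-205 had promoter peaks at 5 of the 8 colon markers (CDX2, HNF4A, LGALS4, TFF3 and VIL1) and the other lines at 0 or 1. OVCAR-3 had them at all 8 ovarian and Mullerian markers and SKOV-3 at 3. COLO-205 and DU-145 had them at 5 each. Of the 8 prostate markers DU-145 had them at 2, as many as COLO-205 and fewer than the 3 of OVCAR-3. PAX8 and MECOM had a promoter peak in all 4 lists without a member.

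The height of a given member differed modestly between lines. To compare lines, the log2 pileup per 1000000 tags was centred in each line on its median over the 5178 common peaks. The range over the 4 lines then had a median of 0.76 on the log2 scale (1.69-fold) for the members and 0.97 (1.96-fold) for the 734 common distal peaks. Over the 4444 members, the log2 pileups of pairs of lines had Pearson correlations from 0.34 (COLO-205 and DU-145) to 0.54 (OVCAR-3 and SKOV-3), a description over peaks that share the libraries and the base composition of promoters. The most even members were at CDK5RAP2, a centrosomal protein, SCYL3 and DR1, a repressor of TATA-binding protein. CDK5RAP2 had 40 tags for COLO-205 (29 to 54), 64 for DU-145, 89 for OVCAR-3 and 33 for SKOV-3, which is a centred range of 0.03, smaller than the counting error of each value.

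A member was called different where its centred value in 1 line was at least 4-fold above or below the mean of the other 3. By this rule 11 of 4444 members were called (0.248%, 0.124% to 0.442%), against a background of 0.29% over all common peaks. Without chromosomes 3, 13, 14 and 19, which hold 6 of the 11, it was 5 of 3659 (0.137%), against 9 of 4272 common peaks (0.211%). The called members were 5 for COLO-205 (background 0.135%), 1 for DU-145 (0.0386%), 3 for OVCAR-3 (0.0966%) and 2 for SKOV-3 (0.0386%). Without centring the same lines had 0, 2, 47 and 0 called members. The calls in COLO-205 and SKOV-3, and the 2 of the 3 OVCAR-3 calls that are lower there, thus hold only with centring. The shares with centring are near the background, of which the members make up most, and no member was 8-fold different. A limit of 2-fold called 636 members (14.3%), against 16.5% of all common peaks.

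In COLO-205 the called members were all higher than elsewhere. TRERF1, a zinc finger regulator, had 196 tags for COLO-205 (170 to 225), 72 for DU-145 (56 to 91), 90 for OVCAR-3 (72 to 111) and 36 for SKOV-3 (25 to 50), and C6orf226, which lies near it on chromosome 6, had 259, 78, 152 and 58. The centred differences were 2.19 and 2.07 on the log2 scale. ERCC5 on chromosome 13 had 123, 61, 40 and 34 tags. MAP3K5, with 120, 53, 46 and 26 tags, and HMGB1, with 4.87 tags per 1000000 against 1.22, 2.16 and 1.47, were also called and are named here because they passed the limit. UBR2 on chromosome 6 (158, 85, 76 and 33 tags) and MED4 on chromosome 13 (117, 51, 46 and 32 tags) lay below the limit, at 1.92 and 1.99. The 76 members on chromosome 13 as a whole had a median centred value in COLO-205 that was 0.82 higher than over all members, and its part in the single peaks was not tested.

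In DU-145 the 5 genes named for the largest positive difference were all on chromosome 14, with each gene taken by its member with the highest −log10 q. Over all members, 1 at WDR37 on chromosome 10 (1.85) lay among them, named after its value was seen. ARHGAP5, a GTPase-activating protein, had 60 tags for COLO-205, 249 for DU-145, 80 for OVCAR-3 and 36 for SKOV-3. A second, weaker OVCAR-3 peak at ARHGAP5, matched to the same DU-145 peak, was the called one, with 52, 249, 36 and 24 tags and a difference of 2.43, and lies outside the naming rule. FRMD6 had 27, 181, 51 and 31 tags, MGAT2, an N-glycan branching enzyme, 41, 201, 65 and 27, NIN, a centrosomal protein, 51, 204, 68 and 34, and EAPP 39, 200, 89 and 27. In each of them DU-145 was more than 1.6 log2 units above the mean of the other lines. The 218 members on this chromosome had a DU-145 median 0.34 above that of all members, and its part in the single peaks was not tested.

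In OVCAR-3, PLD3, of the phospholipase D family, had the largest positive difference. It had 26 tags for COLO-205 (17 to 38), 39 for DU-145 (28 to 53), 285 for OVCAR-3 (253 to 320) and 20 for SKOV-3 (12 to 31), a difference of 2.34. RPS16 (69, 63, 373 and 33 tags) and CCNE1, which encodes cyclin E1 (35, 67, 281 and 29 tags), also lie on chromosome 19. CD47, the macrophage checkpoint ligand on chromosome 3, had 32, 51, 307 and 35 tags, and THAP12 on chromosome 11 had 36, 71, 290 and 30. Members of chromosome 19 as a whole were 0.22 below all members in OVCAR-3, and those of chromosome 3 were 0.47 above. These medians describe whole chromosomes, and their part in the single peaks was not tested.

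The lowest centred values were in OVCAR-3 as well. PPARG, a nuclear receptor of lipid metabolism, had 38 tags for COLO-205 (27 to 52), 64 for DU-145 (49 to 82), 20 for OVCAR-3 (12 to 31) and 36 for SKOV-3 (25 to 50), a difference of -2.19. SOCS6, a cytokine signalling inhibitor, had 41, 41, 20 and 45 tags and a difference of -2.12. PITPNM2, ABHD17C and IL15RA, the next under the naming rule, had 25, 34 and 33 tags in OVCAR-3. Centring places OVCAR-3 lower than the raw values do, because its common peaks were high in general. Without centring, the differences of PPARG and SOCS6 in OVCAR-3 were under the 4-fold limit, so both calls hold only with centring. Scaled to depth alone, OVCAR-3 was still the lowest of the lines at both. Without centring 47 of the 49 called members were called in OVCAR-3.

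In SKOV-3, ERBB2, the receptor tyrosine kinase HER2, stood out. Its member had 44 tags for COLO-205 (32 to 59), 50 for DU-145 (37 to 66), 113 for OVCAR-3 (93 to 136) and 149 for SKOV-3 (126 to 175), a difference of 2.15. STARD3, its neighbour on chromosome 17, had 69, 76, 73 and 119 tags and a difference of 1.62. TCF3, an E-protein factor on chromosome 19 that was named because it passed the limit, had 27, 78, 78 and 122 tags. Its difference was 2.06. MAP3K6 (35, 67, 38 and 82 tags), SOCS6 and ACTRT3 (32, 41, 114 and 73 tags) had differences of 1.78, 1.38 and 1.36. They were named under the rule that takes each gene by its member with the highest −log10 q, and other members lie between them. The 275 members of chromosome 17 had a SKOV-3 median 0.07 above that of all members. This median describes the whole chromosome and not the region around a gene, and its part in the single peaks was not tested.

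**Figure D4:**
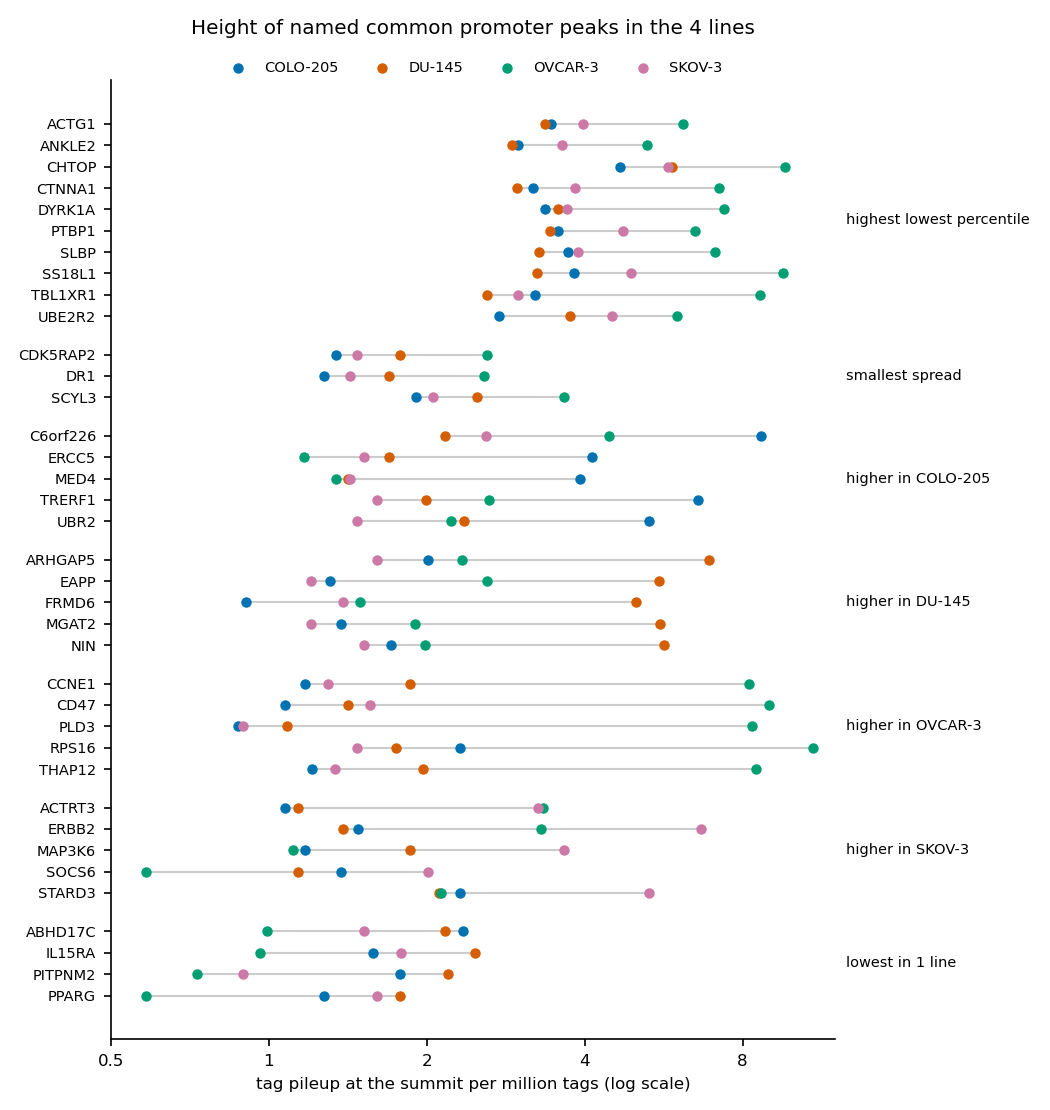
Tag pileup at the summit per 1000000 tags (horizontal axis, log scale) of named members, with 1 point per line and a grey bar from the lowest to the highest. Values are not centred, so OVCAR-3 is highest at most members, and the groups named for a line were chosen on centred values, such as ERBB2 with 6.65 in SKOV-3 and 1.39 to 3.30 elsewhere.

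The members were not spread evenly over the chromosomes. Chromosomes 1 to 22, without 7, had members at 19.6% (chromosome 6) to 39.0% (chromosome 14) of their protein-coding genes. Chromosome 7 had 38 members at 4.78% of its 921 genes. The SKOV-3 list holds 65 peaks on this chromosome, against 1859 for COLO-205, 2586 for DU-145 and 1717 for OVCAR-3, and 14.8% of the 256 promoter peaks common to the other 3 lists were also found in SKOV-3, against 51.3% to 90.2% on the other chromosomes. Whether this belongs to the line or to the deposited list was not tested, and the values for chromosome 7 are to be read with that limit. ACTB was among the few members there. The X chromosome had 57 members at 6.96% of its 862 genes, and 85.1% of its 67 promoter peaks common to the other 3 lists were also in SKOV-3. On X the lists hold 262 peaks for COLO-205, 179 for DU-145, 1102 for OVCAR-3 and 221 for SKOV-3. Chromosome 13 had 76 members, on a chromosome with 12078 COLO-205 peaks, 353 OVCAR-3 peaks and 249 DU-145 peaks.

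**Figure D5:**
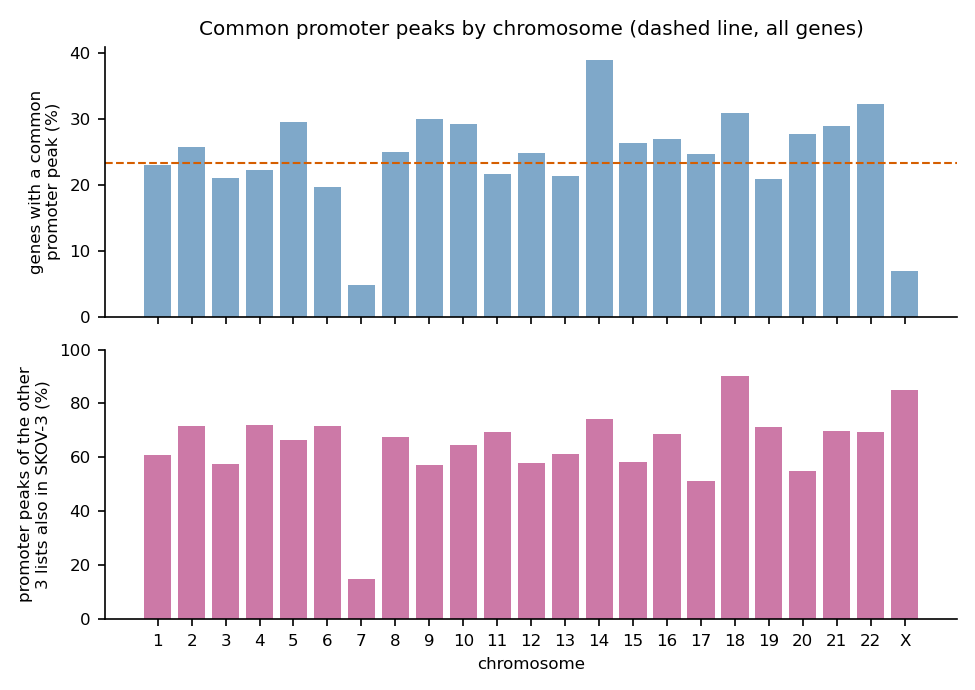
Percent of protein-coding genes with a common promoter peak on each chromosome (upper bars, dashed line at 23.3% for all genes) and percent of OVCAR-3 promoter peaks shared with COLO-205 and DU-145 that are also in SKOV-3 (lower bars). Chromosome 7 is low in both, at 4.78% and 14.8%, and chromosome X only in the upper one, at 6.96%.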

How the data were processed

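H3K27ac ChIP-seq peak lists of the 4 lines were used, with 1 library each. Per the submitters' processing notes, the authors mapped reads to hg19 with Bowtie2 2.1.0 and called narrow peaks per library with MACS2 2.1.0.20150603, at a q-value of 0.001. For each peak the deposited lists give the −log10 p, the −log10 q, a score and the fold over the local background, none of them scaled between libraries, and the peaks are not merged.

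Transcript starts came from GENCODE 44 lifted to GRCh37, the build of the lists (78716 starts). Pileup and background were solved per summit from the deposited fold and −log10 p (tolerance 0.001 on the −log10 scale), which worked for 100% of peaks, and the tags per library were estimated from the lowest background and 2700000000 genome positions. This step and the rule were tested on simulated data. Where several peaks of a line overlapped a member, the one with the highest −log10 q stood for it, and 48 members in COLO-205, 188 in DU-145 and 28 in SKOV-3 share such a peak with another member. A peak is named by the gene of its nearest start. Where gene names are listed, they are the 10 members with the highest lowest percentile, the members with the largest differences (5 per line, and the 5 lowest), up to 3 per gene list by mean percentile, those nearest the limits, the widest and narrowest, those with most members and the most even. A gene with several members is given by its highest −log10 q. Genes named only for having or lacking a peak, and the called members outside this rule, were picked after their values were seen. The members, lists and rules were chosen with earlier results of these data known.

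With 1 library per line no test was run. Intervals are 95% exact Clopper-Pearson or Poisson intervals. Alternatives covered thresholds, overlap, distance, merging, list length, SKOV-3, transcripts, chromosomes, centring, fold limits and motif windows. Python 3.11.15, numpy 2.4.6, pandas 2.3.3, scipy 1.17.1 and matplotlib 3.10.9 were used. Some genes and sequences are not reported here.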

Additional observations from a re-analysis of the deposited data

How the results depend on the processing

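No paired analysis was possible because each line has a single library. Leaving out chromosome 7 and comparing CpG-island-like starts alone were chosen after seeing the data. A −log10 q of at least 10 in every list gave 2637 common promoter peaks at 2852 genes, 19.03% of the promoter peaks, with a median width of 957 bases and a CpG ratio of 0.907. Covering 50% of the OVCAR-3 peak gave 2228 peaks, 2363 genes, 13.1%, 684 bases and 0.908. Cutting each list to an equal length gave 2074 peaks, 2295 genes, 26.98%, 1005.5 bases and 0.914, and without SKOV-3 7082 peaks, 41.6%, 744 bases and 0.885. Merging gave 33.2% and 1189.5 bases. The share of promoter peaks was 29.3% within 500 bases, 22.3% within 2 kb, 23.03% with every transcript of a protein-coding gene and 26.9% without chromosome 7. The share of downstream summits was 73.4% within 500 bases and 69.9% with every transcript. Fewer peaks, a stricter limit or other starts enter by construction in these settings, and the cause of the changes in width and CpG ratio was not tested.

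The share of members over the fold limit was 14.3% at 2-fold, 0 at 8-fold, 1.103% without centring, 0.203% by fold enrichment and 0.137% without chromosomes 3, 13, 14 and 19. Over all common peaks these were 16.5%, 0, 1.33%, 0.251% and 0.211%. The share of starts with TATAAA, NRF1 and the cyclic AMP response element, minus the share over all starts, turned to 0.0804, -0.0817 and -0.0219 percentage points among CpG-island-like starts. The number of gene lists above the share of all genes was 15 to 17 in every setting, and the histone and ZNF lists changed sides most often. When 50% of the peak had to be covered, cytosolic ribosomal proteins (11 of 81) were near and mitochondrial ribosomal proteins (8 of 78) and aminoacyl-tRNA synthetases (2 of 20) were below the 11.9% of all genes. Presence in the SKOV-3 list, which has the fewest tags, limits the set, and a member near the threshold in 1 library may be missed in another of the same depth.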

Other observations

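With the members split by mean percentile into 4 groups of 1111, the median CpG observed/expected ratio was 0.887 in the weakest group and 0.917 in the strongest, and the SP1 box was found at 77.9% and 81.9% of the starts. The YY1 motif was at 5.04% and 7.65% with 7.83% in the third group, and the cyclic AMP response element at 2.25% and 3.24% with 3.87% in the third. NFY was at 31.6% and 28.5% with 33.8% in the second group, and TATAAA at 3.15% and 4.05% with 4.77% in the third. The ZNF143 motif, which few members hold, was at 1.08% and 0.450%. Width and evenness moved with strength, with a median width of 650 bases in the weakest group and 1134 in the strongest, and a median log2 range between lines of 0.87 and 0.68. Strength, width and range come from the same peaks, and no difference between the groups was tested.

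The 303 members with a YY1 motif near the start had a median pileup of 3.65 per 1000000 tags in OVCAR-3, against 3.30 over all members, 1.81 against 1.68 in COLO-205 and 1.88 against 1.79 in SKOV-3, while both medians were 2.19 in DU-145. The 153 members with an AP-1 motif had the lowest median CpG ratio of the 10 motif groups, 0.827, and a median log2 range of 0.79 between lines, against 0.76 for members without it. None of these differences was tested.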
